A study of Homo sapiens with 6 samples.

Results

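Abundant noncoding RNAs of DU-145-DR/tet-MUC1shRNA cells were followed as a set of 7 genes, RN7SL1, RN7SL2, RN7SL3, RN7SK, RPPH1, MALAT1 and NEAT1, taken by gene symbol from the 28008 genes of the count table. All 7 were also among the 25546 genes of the table of TPM, a unit that divides each count by a transcript length and scales every library to the same total. They were picked for the share of each library they held in counts and in TPM and for their change with doxycycline (DOX), so those values are given as a description, without a test.

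The study asked what depends on MUC1-C, the transmembrane subunit of the MUC1 oncoprotein, in drug-resistant prostate cancer cells. DU-145-DR are human DU-145 prostate cancer cells selected for resistance to the taxane docetaxel (DTX), and the tet-MUC1shRNA derivative carries a MUC1 hairpin in a tetracycline-inducible vector that confers puromycin resistance. Cultures in triplicate were kept without DOX (DOX-negative, 3 libraries) or with DOX (DOX-positive, 3 libraries). The study's methods and the series' design text give 500 ng/ml DOX, or 0.1% DMSO as vehicle in the DOX-negative group, and 7 days of treatment. Both groups share the DTX selection and the vector, and the labels name neither the hairpin nor a clone. The column headers give the line as TR where the sample titles give DR, and they carry the tag tet8. The meaning of TR and of tet8 is not given. No DOX-treated control hairpin was analysed here, so DOX itself and loss of MUC1 cannot be told apart.

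Library totals ran from 15092691 to 23243713 counts. Counts of MUC1 were 387, 484 and 396 without DOX and 75, 74 and 66 with DOX, and by edgeR its log2 fold change was -2.52 (SE 0.146, adjusted p 4.47e-11). Its mean CPM with DOX was 17.6% of that without. All 5 epithelial markers (EPCAM, KRT8, KRT18, CDH1 and KRT19) were detected, and their summed level, in CPM (counts scaled to a common library size, with TMM factors), was 757 to 837 without DOX and 1443 to 1516 with DOX. Whether the rise of these markers bears on the noncoding RNAs was not tested. Summed fibroblast markers reached 5.59 CPM and summed blood cell markers 0.479 CPM, with CD3E and HBB at 0.

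RN7SL1, RN7SL2 and RN7SL3 are copies of the 7SL RNA, the scaffold of the signal recognition particle (SRP) that brings ribosomes making secreted proteins to the endoplasmic reticulum. RN7SK is the 7SK RNA, which holds the elongation kinase P-TEFb in an inactive complex, and RPPH1 is the catalytic RNA of RNase P, which trims the 5′ ends of tRNA precursors. All of these are made by RNA polymerase III and carry no poly(A) tail. MALAT1 and NEAT1 are long RNA polymerase II transcripts that stay in the nucleus, MALAT1 in nuclear speckles and NEAT1 as the scaffold of paraspeckles, and the 3′ ends of MALAT1 and of the long NEAT1 isoform are cut by RNase P rather than polyadenylated. The libraries were made with a kit that selects polyadenylated RNA.

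In GENCODE 29 (GRCh38) all 3 7SL copies are on chromosome 14, and their sequences are nearly identical. How reads that fit several copies were counted is not given in the sources used here, so the split between the 3 genes is uncertain and their sum is the firmer value. GENCODE 29 also lists 677 RN7SL pseudogenes, of which 1 was in the count table, and 293 RN7SK pseudogenes, of which 0 were.

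The 5′ end of 7SK is shown because its hairpin binds HEXIM1, the P-TEFb inhibitor, through repeated GATC letters (GAUC in the RNA). Every GATC is in capitals, and which of them HEXIM1 binds was not tested here. These 100 bases lie at chr6:52995621-52995720 (GRCh38, plus strand).
RN7SK: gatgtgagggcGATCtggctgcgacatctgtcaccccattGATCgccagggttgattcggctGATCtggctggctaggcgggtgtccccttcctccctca

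GATC, which reads the same on both strands, occurred 3 times in this window, at positions 12, 41 and 63. Of 203519 GENCODE 29 transcripts of at least 100 bases, 22.4% held it at least 1 time in their first 100 bases and 0.286% held it at least 3 times.

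For MALAT1, the longest run of A on the RNA strand is shown in capitals, since it was read from poly(A)-selected libraries. The stretch lies at chr11:65506038-65506170 on the plus strand (GRCh38).
MALAT1: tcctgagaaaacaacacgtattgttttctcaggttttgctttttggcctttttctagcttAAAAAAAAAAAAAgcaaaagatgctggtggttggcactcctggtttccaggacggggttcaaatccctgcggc

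The run in MALAT1 was 13 bases long and ended 359 bases before the annotated 3′ end, and RF01684, the tRNA-like small RNA that RNase P releases from the MALAT1 3′ end, is annotated just after it at chr11:65506117-65506173. Runs at least as long were held by 26.4% of the 1272 GENCODE transcripts within 10% of the length of MALAT1. The longest run was 3 bases in RN7SK and 2 in RPPH1. Runs at least as long were held by 96.5% and 99.96% of transcripts within 10% of their lengths. RN7SL1 to RN7SL3 and NEAT1 were not scanned, and whether such runs bear on capture was not tested.

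RN7SL1 had 34288, 18018 and 75452 counts in DOX-negative replicates 1 to 3 and 67037, 63032 and 46228 in DOX-positive replicates 1 to 3. These were 1886, 921 and 3751 CPM without DOX and 2919, 3290 and 3106 CPM with DOX. DOX-negative replicate 2 was the lowest and DOX-negative replicate 3 the highest library, and the DOX-positive libraries lay between them. The mean was 2186 ± 1439 CPM (SD, n = 3) without DOX and 3105 ± 186 with DOX, a log2 fold change of 0.51 (SE 0.255). Here and below, the SE comes from the edgeR fit, whose variance draws in part on other genes. For each of the 7 RNAs it was smaller than the spread of the gene's own replicates would give, and it can be for other genes. The SD in log2 CPM without DOX was 0.87 (RN7SL2) to 1.14 (RN7SL3) in the 5 short RNAs. It was 0.31 for MALAT1 and 0.46 for NEAT1. The SD of RN7SL1 in log2 CPM was 1.01 without DOX and 0.086 with DOX. In bulk RNA, fewer cells of a type and less RNA per cell cannot be told apart.

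RN7SL2 had 1621, 913 and 3042 CPM without DOX and 2899, 2603 and 2875 CPM with DOX. DOX-negative replicate 2 was again at the bottom and DOX-negative replicate 3 at the top, and the groups overlapped. Its mean was 1859 ± 1084 CPM (SD, n = 3) without DOX and 2792 ± 164 with DOX, a log2 fold change of 0.59 (SE 0.224). RN7SL3, the copy with the fewest reads, had 476, 257 and 1293 counts without DOX and 1150, 1086 and 713 with DOX. Its log2 fold change was 0.57 (SE 0.286), and its groups overlapped in CPM.

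The ratio of RN7SL1 to RN7SL2 counts stayed between 1.01 and 1.26 in all 6 libraries and that of RN7SL1 to RN7SL3 between 58.0 and 72.0. Summed, the 3 copies took 0.358%, 0.190% and 0.683% of counts without DOX and 0.580%, 0.589% and 0.595% with DOX. The DOX-positive libraries thus spanned a ratio of 1.03 and the DOX-negative libraries one of 3.59.

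RN7SK was read 121165, 49206 and 192785 times without DOX and 200189, 165965 and 108563 times with DOX. In CPM these were 6665, 2515 and 9585 without DOX and 8718, 8664 and 7294 with DOX. DOX-negative replicates 2 and 3 again bracketed all other libraries. The mean was 6255 ± 3553 CPM (SD, n = 3) against 8225 ± 807, a log2 fold change of 0.40 (SE 0.244).

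RPPH1 had 19514, 7429 and 25259 counts without DOX and 33284, 26119 and 19396 with DOX. The levels were 1073, 380 and 1256 CPM without DOX and 1449, 1364 and 1303 CPM with DOX. Here every DOX-positive library lay above every DOX-negative library in CPM, but not in TPM. DOX-negative replicate 3 at 1256 CPM came close to DOX-positive replicate 3 at 1303 CPM. In TPM, DOX-negative replicate 1 was the highest library, at 24073 against 23344 to 24037 with DOX. The mean was 903 ± 462 CPM (SD, n = 3) without DOX and 1372 ± 73.5 with DOX, a log2 fold change of 0.60 (SE 0.225).

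MALAT1 had 187354, 206235 and 145057 counts without DOX and 255953, 200965 and 172617 with DOX, and it was the gene with the most counts in 5 of 6 libraries. Levels were 10306, 10539 and 7212 CPM without DOX and 11146, 10491 and 11597 CPM with DOX. The groups overlapped, and the lowest library was DOX-negative replicate 3, the one that was highest in the 7SL RNAs. The mean was 9352 ± 1857 CPM (SD, n = 3) against 11078 ± 556, a log2 fold change of 0.24 (SE 0.1000) from counts that was -0.13 on the log2(TPM + 1) scale.

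NEAT1 had 8558, 10503 and 5853 counts without DOX and 18067, 13399 and 12595 with DOX. Its levels were 471, 537 and 291 CPM without DOX and 787, 699 and 846 CPM with DOX. All DOX-positive libraries lay above all DOX-negative libraries in CPM, but not in TPM. The mean was 433 ± 127 CPM (SD, n = 3) without DOX and 777 ± 73.8 with DOX, and its log2 fold change of 0.85 (SE 0.131) was the largest of the 7. MALAT1 counts were 19.6 to 24.8 times NEAT1 counts without DOX and 13.7 to 15.0 times with DOX.

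**Figure D1:**
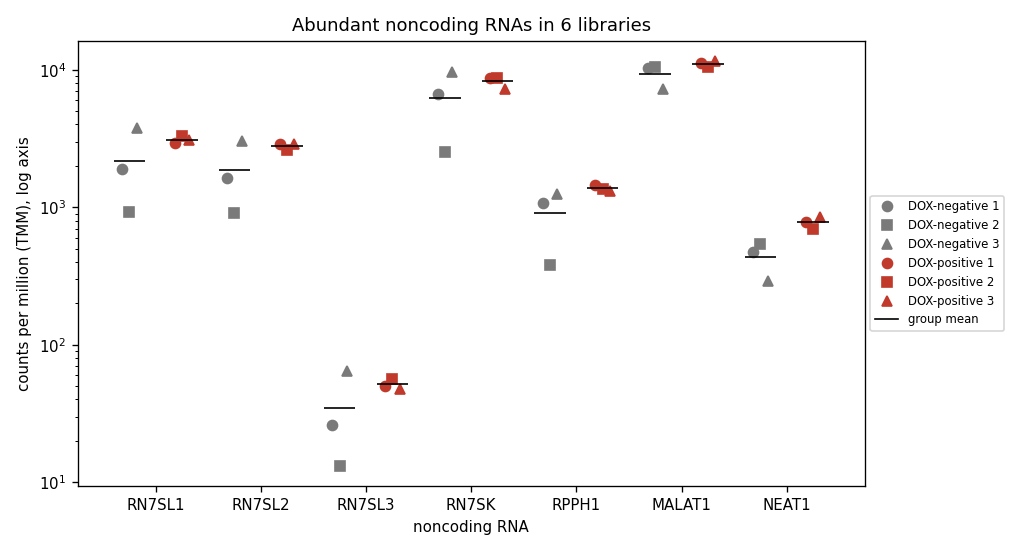
Level of each of the 7 noncoding RNAs in CPM on a log axis, by library (grey, DOX-negative; red, DOX-positive; the symbol gives the replicate; black lines, group means). In the 5 short RNAs DOX-negative replicate 2 is lowest and DOX-negative replicate 3 is the highest of its group, and in MALAT1 and NEAT1 DOX-negative replicate 3 is lowest.

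Of the 7 RNAs, 2 (RPPH1 and NEAT1) were higher in DOX-positive libraries with no overlap in CPM between the groups, where 19.5% of the 14292 genes tested were higher without overlap and 39.8% did not overlap in either direction. Since the members were chosen on this contrast, nothing is read from that count. All 7 mean levels were higher with DOX in CPM, by 1.18-fold (MALAT1) to 1.80-fold (NEAT1).

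DOX-negative replicates 2 and 3 stood apart, and each fold change was recomputed without them. Without DOX-negative replicate 2, the log2 fold change fell to 0.14 for RN7SL1, 0.26 for RN7SL2, 0.19 for RN7SL3, 0.019 for RN7SK and 0.24 for RPPH1. Without DOX-negative replicate 3, these rose to 1.15, 1.14, 1.40, 0.84 and 0.92. The long RNAs went the other way, with 0.34 for MALAT1 and 1.03 for NEAT1 without replicate 2 and 0.089 and 0.63 without replicate 3.

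Between those DOX-negative libraries, levels in CPM were 3.31 to 4.89 times higher in replicate 3 for the 5 short RNAs, with RN7SL3 at the top and RPPH1 at the bottom of that range. For MALAT1 and NEAT1 the same ratio was 0.684 and 0.542. Other short RNAs without a poly(A) tail were read as a background of 633 genes, of which 380 had any counts. They were named as RNase MRP RNA, telomerase RNA, spliceosomal, Y, vault, 5S, small nucleolar or Cajal body RNAs, with 1 RN7SL pseudogene. Together these genes took 0.0961% to 0.191% of counts. Among them RMRP, the RNA of RNase MRP, which shares most of its proteins with RNase P, had 19297, 10814 and 27763 counts without DOX and 28083, 22668 and 20616 with DOX. Its counts were 0.844 to 1.46 times those of RPPH1, and DOX-negative replicates 2 and 3 were again the lowest and highest of their group. Without RMRP the other 632 genes took 0.0393% to 0.0541% of counts, a ratio of 1.38 between highest and lowest against 1.99 with RMRP. The most counted of them did not share 1 direction between DOX-negative replicates 2 and 3, whose ratio in CPM ran from 0.168 for SNORA73B to 1.62 for SNORD3A, both named after their values were seen. RNA quality was not measured in these files, and its part in the difference between replicates was not tested.

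Counts of different genes were compared per length, as counts per kilobase of RefSeq length scaled like CPM but by the library total alone. The libraries were poly(A)-selected and the short RNAs carry no tail. The order is therefore one of reads, and abundance in the cell was not measured. On this scale RN7SK had the highest value, at 18954 ± 10542 (SD, n = 3) without DOX and 24480 ± 2437 with DOX. RN7SL1 followed at 7348 ± 4734 and 10261 ± 624, then RN7SL2 at 6253 ± 3556 and 9227 ± 529 and RPPH1 at 2666 ± 1339 and 3975 ± 216. MALAT1 came next at 1080 ± 229 and 1247 ± 60.3, RN7SL3 at 116 ± 87.7 and 170 ± 15.4, and NEAT1 last at 19.3 ± 5.94 and 33.8 ± 3.14. In the DOX-negative group the range of each of the 5 highest overlapped that of its neighbour in this order. Only RN7SL3 and NEAT1 were apart from theirs. Within each DOX-negative library the order held, except that RPPH1 (1145) lay below MALAT1 (1235) in replicate 2. In the DOX-positive group no neighbours overlapped, although the lowest RN7SL1 library (9646) was close to the highest RN7SL2 library (9578). The NEAT1 value divides by 22743 bases, the length of the long isoform, and the short isoform was not counted apart from it.

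The 5 short RNAs together held 1.14%, 0.488% and 1.76% of counts without DOX and 1.58%, 1.58% and 1.44% with DOX. Of the deposited TPM they held 51.2%, 34.4% and 62.8% without DOX and 64.4%, 60.7% and 60.5% with DOX. The share of TPM was thus 35.7 to 70.6 times the share of counts. The group means were 1.13% ± 0.637 and 1.54% ± 0.0811 of counts (SD, n = 3) and 49.5% ± 14.3 and 61.9% ± 2.21 of TPM, and the groups overlapped on both scales through DOX-negative replicate 3. Counting error was small beside this: the exact (Clopper-Pearson) 95% binomial interval of the lowest share was 0.484% to 0.491% of counts.

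MALAT1 and NEAT1 together held 0.747% to 1.23% of counts and 0.0802% to 0.218% of TPM. By mean value RN7SL1, RN7SL2, RN7SK and RPPH1 were the 4 highest genes of the TPM table and FTH1, the ferritin heavy chain, was the fifth, at 0.285% to 0.561% of TPM. In counts the order was MALAT1, RN7SK, ACTB, TXNRD1 and FTH1. In TPM the 7SL copies made up most of the short RNAs, with 23.9% to 44.7% of a library, against 9.36% to 18.5% for RN7SK and 1.18% to 2.41% for RPPH1. In counts RN7SK led instead, at 1.21 to 1.89 times the sum of RN7SL1 to RN7SL3.

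**Figure D2:**
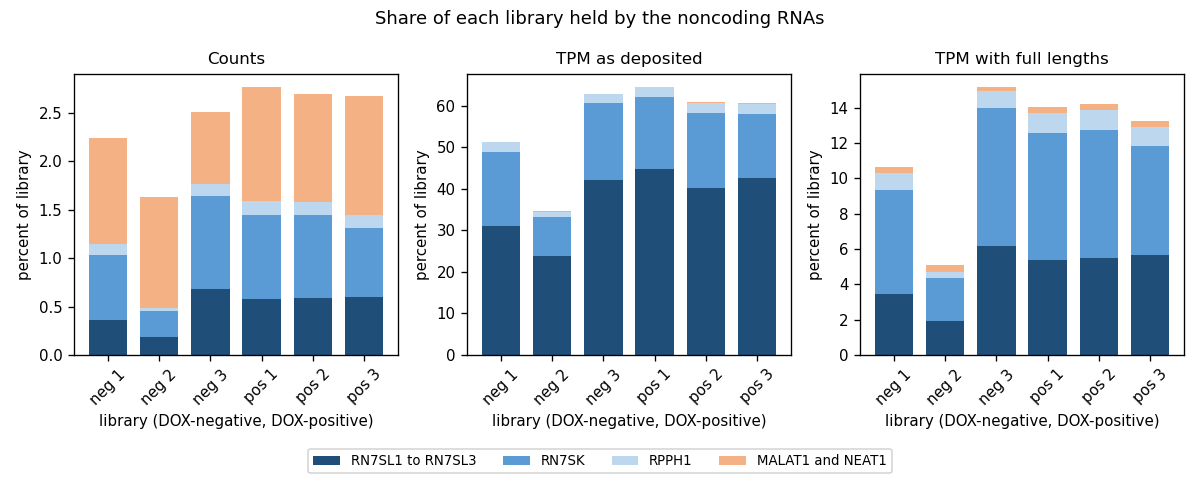
Share of each library held by the 3 RN7SL copies, RN7SK, RPPH1 and MALAT1 with NEAT1, as percent of counts, of the deposited TPM and of TPM recomputed with full lengths (bars start at 0; the 3 panels have different scales). The short RNAs go from at most 1.76% of counts to as much as 64.4% of the deposited TPM, and DOX-negative replicate 2 is lowest in all 3 panels.

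The gap between both scales followed from the length used. In each library the count of each of the 7 RNAs divided by its TPM was proportional to its RefSeq length less a fixed number of bases, 284.6, 285.7 and 283.9 in the DOX-negative and 287.4, 284.1 and 284.7 in the DOX-positive libraries, with a misfit of at most 0.0282% of the length. In 464 to 547 other genes with 1 GENCODE transcript and at least 100 counts, the length derived in the same way differed from that of the transcript by a median of 2.73% to 3.20%, and the annotation behind the deposited TPM is not given in the sources used here. RN7SL1 to RN7SL3 are 299 bases long in RefSeq, which left 11.6 bases (DOX-positive replicate 1) to 15.1 bases (DOX-negative replicate 3), or 3.88% to 5.05% of the length. In TPM, 1 read of RN7SL1 therefore weighed 562 to 731 times as much as 1 read of MALAT1, whose length is 8779 bases.

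The length used for RN7SL1 in DOX-negative replicate 3 was 1.30 times that used in DOX-positive replicate 1. With the same deduction of 285.1 bases in every library, the short RNAs held 61.3%, 61.8% and 60.9% of TPM with DOX and 51.8%, 33.7% and 64.2% without. With the deduction added back, so that full lengths were used, they held 13.7%, 13.9% and 12.9% with DOX and 10.3%, 4.69% and 15.0% without. With full lengths RN7SK held more than RN7SL1 to RN7SL3 together in every library, 2.39% to 7.78% against 1.95% to 6.18%. On each of these scales DOX-negative replicate 2 was lowest and the groups overlapped. Genes shorter than the deduction were largely absent from the TPM table: of the 2434 absent genes with a RefSeq entry, 98.0% spanned fewer bases, against 0.581% of the 23224 listed. RMRP, at 270 bases, was among the absent genes despite a mean of 21540 counts.

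**Figure D3:**
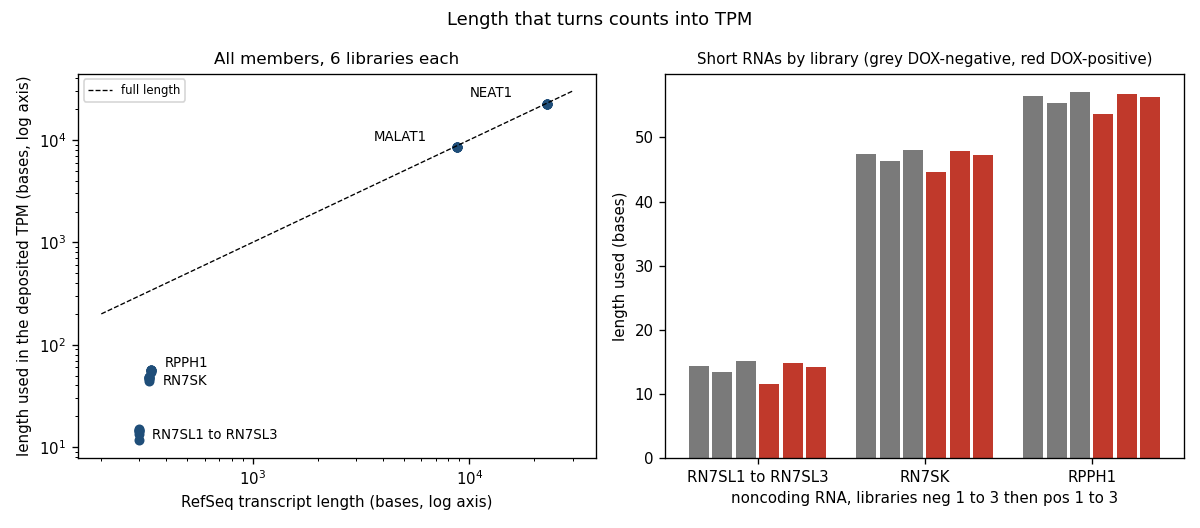
Left, length that the deposited TPM used against RefSeq length for the noncoding RNAs in all 6 libraries (both axes log; dashed, full length); right, the length used for the short RNAs in each library (grey, DOX-negative; red, DOX-positive; bars start at 0). The RN7SL copies keep 11.6 to 15.1 of 299 bases while MALAT1 and NEAT1 lie close to the dashed line.

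Since TPM sum to 1 fixed total, the share of the short RNAs set what was left for all other genes, 35.6% (DOX-positive replicate 1) to 65.6% (DOX-negative replicate 2) of TPM. The geometric mean of that remainder was lower with DOX by 0.37 on the log2 scale. The median log2(TPM + 1) change of 14130 other genes was -0.32 and 90.1% of them were lower with DOX. After TPM were rescaled without the 5 short RNAs the median was -0.025 and 54.0% were lower, against 50.5% from counts. With full lengths the median was -0.071.

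MALAT1 shows this in 1 gene: its TPM were 1535, 2140 and 790 without DOX and 1162, 1238 and 1377 with DOX, a log2 change of -0.13 that became 0.24 after the rescaling. NEAT1 changed by 0.47 in TPM as deposited and by 0.85 after the rescaling. All 10 reference mRNAs were lower with DOX in TPM, but 8 of 10 were lower from counts, and 2 of 10 passed the edgeR test: TBP, the TATA-binding protein, which fell (log2 fold change -0.32, adjusted p 0.0398), and B2M, the class I MHC light chain, which rose from counts (log2 fold change 0.22, adjusted p 0.0149) while its log2 TPM change was -0.17. The call of TBP was lost in each fit without 1 library other than that without DOX-positive replicate 2, by DESeq2 (adjusted p 0.0646) and with a replicate block (adjusted p 0.0589), while that of B2M was lost without DOX-negative replicate 3 (adjusted p 0.0675) and without DOX-positive replicate 2 (adjusted p 0.0596). ACTB, which encodes beta-actin, had a log2 change of -0.0090 (SE 0.0657) from counts and -0.40 in TPM. Between DOX-negative replicates 2 and 3, the TPM of the 10 mRNAs were 1.32 to 2.02 times as high in replicate 2, and their CPM 0.709 to 1.09 times.

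**Figure D4:**
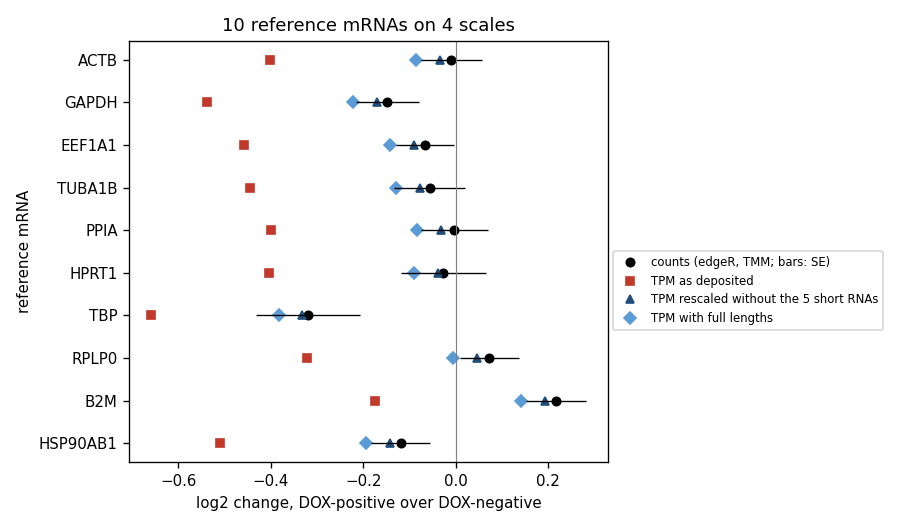
Log2 change with DOX of 10 reference mRNAs from counts (black, with edgeR SE), from TPM as deposited (red), from TPM rescaled without the 5 short RNAs (dark blue) and from TPM with full lengths (light blue). All red points lie left of 0, between -0.66 and -0.17, and the rescaled points lie near the counts.

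Genes for proteins that bind, make or degrade these RNAs, and other long noncoding RNAs, were tested with edgeR over all 14292 genes, and their changes are given as log2 fold changes from counts. Of 125 tested partner genes in 8 lists, 33 passed an adjusted p of 0.05 (26.4%), next to 26.7% of all genes tested. Higher in DOX-positive libraries were 17 of them and lower 16, next to 13.0% and 13.7% of all genes. As a set the partner genes were called about as often as the background.

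Of 8 SRP protein and receptor genes 3 passed. SRP9, an Alu-domain subunit that binds 7SL RNA, had 4338, 4422 and 4564 counts without DOX and 2429, 2021 and 1651 with DOX. All DOX-positive libraries lay below all DOX-negative ones, and by edgeR SRP9 had a log2 fold change of -1.10 (SE 0.0630) and an adjusted p of 3.82e-11. The receptor subunits SRPRA (log2 0.34, adjusted p 0.00170) and SRPRB (log2 0.32, adjusted p 0.0163) rose from counts, both with the opposite sign in TPM as deposited, and SRPRB missed the threshold without DOX-negative replicate 1 or 2 or DOX-positive replicate 1 or 3 (adjusted p up to 0.0621). SRP54, the GTPase that reads signal peptides, had a log2 fold change of -0.14 (adjusted p 0.100), and SRP14, the partner of SRP9, one of -0.0087 (adjusted p 0.949, chosen after its value was seen).

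Of 14 genes of the 7SK particle, P-TEFb and the super elongation complex 5 passed, 4 higher and 1 lower. ELL2, an elongation factor of that complex, rose by 0.88 in log2 (SE 0.0740) with an edgeR adjusted p of 1.30e-08. HEXIM1 rose by 0.37 in log2 (SE 0.0725, adjusted p 0.000545) and MEPCE, which caps the 5′ end of 7SK, by 0.32 (SE 0.0849, adjusted p 0.00687) from counts, both with the opposite sign in TPM as deposited. The call of MEPCE was lost without DOX-positive replicate 1 (adjusted p 0.0520). LARP7, which protects the 3′ end of 7SK, fell by 0.34 in log2 (SE 0.0971, adjusted p 0.0122), a call lost without DOX-negative replicate 3, DOX-positive replicate 1 or DOX-positive replicate 3 (adjusted p up to 0.0930).

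Of 9 tested RNase P and RNase MRP protein genes 0 passed by edgeR or DESeq2, and 1 had an unadjusted edgeR p under 0.05. POP1, their largest subunit, had a log2 fold change of 0.11 (adjusted p 0.589). Of 31 genes of RNA polymerase III and its factors 7 passed, 3 higher and 4 lower, against 5 by DESeq2 and 4 with a replicate block. The calls of CRCP, TBP and GTF3C1, named after their values were seen, were lost in 7, 7 and 9 of 14 alternatives from counts. POLR3G and POLR3GL, alternative subunits of the enzyme, rose by log2 changes of 0.47 (adjusted p 0.000495) and 0.48 (adjusted p 0.0143, up to 0.0647 without DOX-negative replicate 1 or 3), and GTF3C4, a TFIIIC subunit, fell by 0.39 (adjusted p 0.000152).

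Among 14 paraspeckle protein genes 3 passed. TARDBP, which encodes the RNA-binding protein TDP-43, fell by 0.49 in log2 (adjusted p 4.62e-05), RBM14 rose by 0.47 (adjusted p 0.000386) and NONO fell by 0.22 (adjusted p 0.00854). SFPQ, a core paraspeckle protein, had an adjusted p of 0.0827. Among 14 genes of nuclear speckles and MALAT1-binding factors 5 passed, all 5 lower, against 6 by DESeq2 and 4 with a replicate block. They were led by the splicing factors SRSF1 (log2 -0.48, adjusted p 6.92e-06), PNN (-0.46, adjusted p 0.000339) and SRSF7 (-0.31, adjusted p 0.00202). The calls of ACIN1 and HNRNPC, named after their values were seen, were lost in 8 and 4 of 14 alternatives from counts. The median log2 fold change of that list was -0.14, next to -0.0034 over all genes tested.

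Of 21 nuclear exosome and 3′ end decay genes 6 passed, 3 higher and 3 lower, and 4 passed with a replicate block. Of those higher, EXOSC6 and EXOSC8, named after their values were seen, were lost in 9 and 6 of 14 alternatives from counts. ZCCHC7 (log2 -0.37, adjusted p 0.00102) and RBM7 (-0.31, adjusted p 0.00396), both exosome adaptors, fell, and the noncanonical poly(A) polymerase PAPD5 rose from counts (0.32, adjusted p 0.000918) with the opposite sign in TPM as deposited. Of 14 other long noncoding RNAs tested 4 passed, all 4 higher. NORAD, which binds Pumilio proteins, rose by 0.56 in log2 (adjusted p 3.44e-06) and MIR22HG, a microRNA host transcript, by 0.51 (adjusted p 0.00110). TALAM1, the antisense transcript of MALAT1, had 76, 68 and 89 counts without DOX and 145, 135 and 195 with DOX, all higher than any without. It rose by 1.10 in log2 (SE 0.226, adjusted p 0.000874), and it had 33.0 to 61.4 counts per 100000 MALAT1 counts without DOX and 56.7 to 113 with DOX, so the groups overlapped in that ratio. Whether counting used strand is not given in the sources used here, so reads of TALAM1 and MALAT1 may not be told apart.

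**Figure D5:**
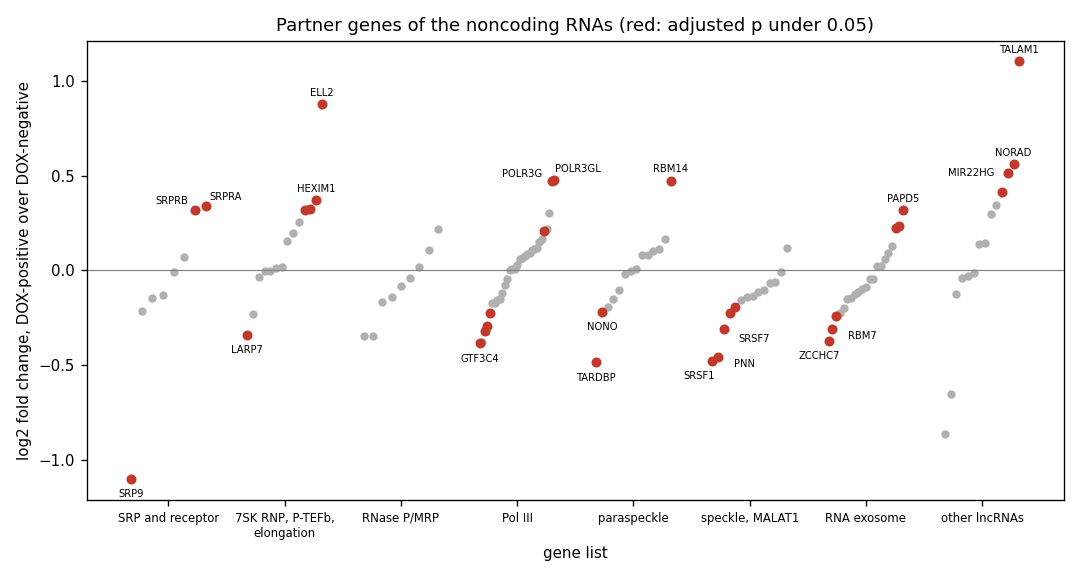
Log2 fold change with DOX of the 125 tested partner genes by list, sorted within each list (red, edgeR adjusted p under 0.05; grey, not passed), with up to 3 genes per list named, those of largest change among the red points. SRP9 (-1.10) and TALAM1 (1.10) are at the extremes among the red points, and the RNase P and RNase MRP list holds no red point.

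Genes next to the members differed in their changes with DOX. RPS29, a ribosomal protein gene that spans RN7SL1 on the opposite strand, had a log2 fold change of -0.046 (edgeR adjusted p 0.672), and NEMF, 412 bases from RN7SL3, one of -0.0013 (adjusted p 0.991). GSTA4, 242 bases from RN7SK and with 45 to 105 counts, fell by 0.64 in log2 (edgeR adjusted p 0.0151). Its adjusted p was 0.0601 when DOX-negative replicate 1 was left out and 0.0569 when DOX-positive replicate 3 was. ICK, on the other side of RN7SK, fell by 0.44 (adjusted p 6.65e-05). PARP2, whose gene starts 174 bases from RPPH1 on the opposite strand, had a log2 fold change of 0.064 (adjusted p 0.559), while CCNB1IP1, at 9762 bases, rose by 0.69 (adjusted p 9.85e-07). FRMD8, the nearest tested gene to NEAT1, had a log2 fold change of 0.20 (adjusted p 0.106).

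By Pearson r of log2 CPM over the 6 libraries, among 9941 genes with an average log2 CPM of at least 3, RHEB (0.992), SSR3 (0.985) and SCARNA10 (0.984) were most like the summed short RNAs. For MALAT1 they were C17ORF58, KIAA1468 and ZNF589 (0.981, 0.981 and 0.976), and for NEAT1 they were COL13A1, MAPK8IP3 and YARS (0.992, 0.992 and 0.991). The points share libraries and depth, and with 6 points the 100th gene in each order still had an r of 0.908, 0.883 and 0.948.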

How the data were processed

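RNA-seq of 3 DOX-negative and 3 DOX-positive libraries (TruSeq Stranded mRNA) was analysed. The authors deposited whole-number counts per gene and TPM per gene; their processing notes name STAR, DESeq2 and GRCh38 (hg38), and the counting tool, strand setting and annotation are not given in the sources used here. How lengths entered the deposited TPM was read from counts divided by TPM against RefSeq lengths (GRCh38.p14). Positions and sequences are from GENCODE 29 (GRCh38).

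Counts were tested with edgeR 4.0.16 (R 4.3.3; filterByExpr, TMM, quasi-likelihood F test, two-sided, Benjamini-Hochberg over 14292 genes, threshold 0.05), and TPM with limma 3.58.1 on log2(TPM + 1). DESeq2 1.42.0, other scalings, filters, a replicate block and fits without each library were alternatives. The model was tested on simulated data with the same dispersion for every gene, so that test does not cover spreads as wide as those of the short RNAs. p-values measure the spread between triplicate cultures, and binomial intervals cover counting error only. The SE of a fold change from edgeR is its absolute log2 value over the square root of F.

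The members and gene lists were chosen with earlier results of these data known. Named were the members, MUC1, per partner list the 3 largest changes past the threshold with HEXIM1, LARP7, MEPCE, SRP54, POP1 and SFPQ, reference mRNAs, genes of highest TPM or counts, neighbours and genes of most like pattern. Of 142 list genes, 3 matched by an older symbol and 1 did not match. Some items are not reported here.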

Additional observations from a re-analysis of the deposited data

How the results depend on the processing

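DOX-positive minus DOX-negative values without 1 library ranged as follows: 0.0843 to 0.721 percentage points for the share of counts of the 5 short RNAs (lowest without DOX-negative replicate 2, highest without replicate 3), 4.85 to 19.1 for their share of TPM, 0.0559 to 0.252 for the share of counts of MALAT1 and NEAT1 (lowest without DOX-negative replicate 3), 3.82e-05 to 0.0477 for other short RNAs, and -0.51 to -0.13 for the median log2 change in TPM of all other genes. Genes past the threshold numbered 3816 (2784 to 3645 without 1 library) and partner genes 33 (25 to 35).

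From deposited TPM, limma called 443 genes with log2(TPM + 1) and 408 with log2(TPM + 0.1), and 2 and 1 partner genes. Of those 443, 6.77% were higher with DOX, against 48.8% of calls from counts, 43.0% of 3094 after rescaling without the 5 short RNAs and 29.6% of 2646 with full lengths, an alternative chosen after seeing the data. MALAT1 reversed to -0.13 with either pseudocount. The log2 fold change of NEAT1 was 0.47 and 0.49 there, and that of RN7SL3 was 1.40 without DOX-negative replicate 3. All other alternatives of the members' fold changes kept their direction and moved by less than the replicate SD. For the 5 short RNAs that yardstick is wide, so it does not show that their values were stable. Their SD in log2 CPM without DOX, 0.87 to 1.14, was larger than their fold changes. Over the alternatives RN7SK ranged from 0.019 to 0.84 and RN7SL1 from 0.14 to 1.15.

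Replicate numbers are shared between the groups, but same-numbered libraries did not deviate together (correlations -0.019, -0.095 and -0.027). The labels do not say whether they share a batch, and they were not paired in the main fit. With the replicate block 3158 genes and 27 partner genes passed. Of the 33 partner calls, 20 held in all 14 alternatives from counts, and 9 had the opposite sign in TPM as deposited.

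With 3 libraries per group, the spread of the DOX-negative group limits what can be said of the short RNAs more than depth does.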
